A study of Homo sapiens with 21 samples.

Results

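Compounds that act on different subunits of the same chromatin complex were compared directly in one tumour model. MAK683 binds EED, and PF-06821497 inhibits EZH2 at its catalytic site. The comparison took every library labelled with either treatment, 3 of MAK683 and 3 of PF-06821497, which makes 6 of the 21 libraries sequenced. HT1376, an established line from a human bladder carcinoma, was injected subcutaneously into the flank of female CB17 SCID mice, which lack functional T and B cells. Mice were 6 to 8 weeks old when the study began, and treatment started 11 to 15 days after injection, once tumours averaged 139 to 160 mm3. Both compounds were given by mouth once a day at 75 mg/kg, and tumours were taken on day 15, 1 hour after dosing. The 3 vehicle libraries are used as the background level. The labels do not say that each library came from its own mouse, so p-values reflect only how much these libraries varied, which may be technical. No drug concentrations or H3K27me3 levels were analysed here.

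Polycomb repressive complex 2 (PRC2) places methyl groups on lysine 27 of histone H3 and keeps developmental genes silent. EZH2, or its relative EZH1, is the catalytic subunit, SUZ12 is the scaffold, and EED reads the trimethylated mark and stimulates the enzyme. PF-06821497 competes with the methyl donor in the EZH2 active site, whereas MAK683 occupies the EED pocket that recognises the mark. Polycomb repressive complex 1 (PRC1) binds the mark through its CBX subunits.

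Gene counts summed to between 15890457 and 24097875 per library in the 6 libraries, and 33028 to 34426 genes had a count. The biological coefficient of variation was 0.151 among the MAK683 libraries, 0.207 among the PF-06821497 libraries and 0.0994 among the vehicle libraries. On the first principal component of the 9 libraries (44.1% of the variance), vehicle lay between -55.8 and -54.3, PF-06821497 at 26.5, -14.5 and 8.66, and MAK683 at 62.5, 38.2 and 44.0, for libraries 1, 2 and 3. On this component, PF-06821497 library 2 therefore lay nearest to vehicle, and PF-06821497 library 1 nearest to MAK683. On the second component (16.5% of the variance), PF-06821497 library 2 lay at -58.2, the lowest of the 9 libraries, and vehicle between 2.75 and 34.7. The title of PF-06821497 library 1 carries a resubmission mark, and so does the deposited name of library 2. No MAK683 or vehicle library carries one, so the mark and the treatment are partly confounded. Human skeletal muscle genes varied within every group, with a mean log2 CPM of 3.77, 1.10 and 3.29 in the PF-06821497 libraries and 2.98, 0.85 and 4.03 in the MAK683 libraries. The median log2 fold change of these 14 genes between the 2 treatments was 0.00.

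MAK683 tumours had more of 242 genes and less of 16 genes than PF-06821497 tumours. The genes higher under MAK683 included developmental transcription factors, 12 of 15 MHC class II genes, PRC1 subunits and the thioredoxin-like gene NXN. The genes lower under MAK683 were few, and FDCSP had the largest decrease. Others were the fatty acid binding protein FABP4, the metallothionein MT2A and the retinoid genes LRAT and STRA6. The test was edgeR's quasi-likelihood test with Benjamini-Hochberg adjustment over 21958 genes (adjusted p under 0.05), and it called 1.1% of genes higher and 0.0729% lower. Of the called genes, 198 of 242 higher and 9 of 16 lower genes differed by at least 2-fold. The median log2 fold change was 1.48 for the higher and -1.16 for the lower genes, against 0.02 over all tested genes. Protein-coding genes made up 92.1% of the higher genes and 70.6% of all tested genes. For 14686 tested genes (66.9%), the 95% interval of the difference lay within 2-fold either way.

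The number of calls depended on single libraries. Leaving out 1 library changed the higher and lower counts to 68 and 1 (MAK683 library 1), 177 and 19 (MAK683 library 2) and 164 and 4 (MAK683 library 3). Without PF-06821497 library 1, the PF-06821497 library nearest to MAK683 on the first principal component, the counts were 427 and 203. They were 73 and 4 without PF-06821497 library 2, and 62 and 4 without PF-06821497 library 3. Of the 242 higher genes, 42 were called in all 6 of these fits, among them NXN, EYA2, CDKN1C, LEF1, EOMES, CD7, TBX5, BMP7, CBX2, CACNA1H and HLA-DPB1. None of the 16 lower genes (0) was called in all 6. DESeq2 called 387 genes higher and 96 lower. A fit of the 6 compared libraries alone called 157 and 5, and of the 46 named genes called it lost 16, among them CBX6, SCML2, PRRX2, CHRD, FST, AXL, LRAT, STRA6 and MT2A.

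**Figure D1:**
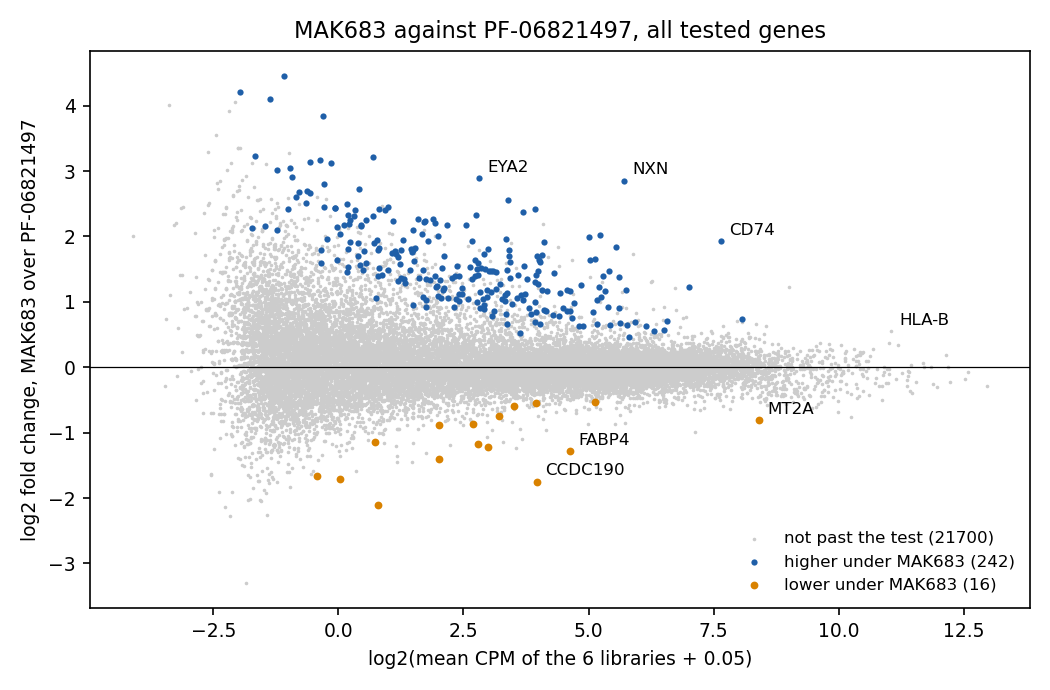
Log2 fold change of MAK683 over PF-06821497 (vertical axis) against the mean level over the 6 libraries (horizontal axis, log2 of CPM plus 0.05) for all 21958 tested genes. Blue points are the 242 genes higher and orange points the 16 genes lower under MAK683. The higher genes reach from low to high levels, with NXN and CD74 among the more abundant of those labelled.

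The PRC2 subunits themselves gave no call between the treatments. EED transcripts were 44.5, 36.7 and 36.1 CPM (read counts scaled to the size of the library) in the PF-06821497 libraries, 48.5, 39.9 and 43.1 CPM in the MAK683 libraries and 38.1, 37.7 and 35.4 CPM in vehicle. The groups overlapped, and the log2 fold change of MAK683 over PF-06821497 was 0.17 ± 0.13 (SE, 95% interval -0.10 to 0.44, n = 3 libraries per group, edgeR adjusted p = 0.68). EZH2 was 91.3, 79.6 and 88.0 CPM under PF-06821497 and 91.3, 85.01 and 94.5 CPM under MAK683, a log2 difference of 0.06 ± 0.10 (interval -0.15 to 0.27). The intervals were -0.33 to 0.13 for EZH1 and -0.19 to 0.60 for SUZ12. Thus none of these 4 genes differed detectably between the treatments, and the interval of each excluded a 2-fold difference. Of the 6 core and 9 accessory subunits, 0 passed edgeR's adjusted threshold between the treatments and 0 had an unadjusted p under 0.05. EZH2 was 72.7, 71.4 and 73.6 CPM in vehicle. Against vehicle it differed by 0.31 under MAK683 (adjusted p = 0.038, edgeR) and 0.25 under PF-06821497 (adjusted p = 0.13, edgeR). Of the 9 accessory subunits, 2 were higher and 1 lower than vehicle under MAK683, and 1 higher and 1 lower under PF-06821497. Over all genes these shares were 10.4% and 5.17%, and 5.96% and 3.59%.

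PRC1 subunits included 3 called genes of 25, all higher under MAK683, against the 1.1% of all genes called higher. CBX2, a reader of H3K27me3, was 12.5, 8.21 and 10.2 CPM in the PF-06821497 libraries and 24.1, 22.4 and 23.7 CPM in the MAK683 libraries. Each MAK683 library was above each PF-06821497 library, and the log2 fold change was 1.18 ± 0.20 (adjusted p = 0.0054, edgeR). Its vehicle level was 6.02, 6.80 and 7.08 CPM, below both treatments. CBX6, from the same reader family, was 75.8, 80.6 and 62.0 CPM under PF-06821497 and 109, 107 and 109 CPM under MAK683, while vehicle had 71.0, 83.0 and 80.5 CPM. The PF-06821497 libraries thus lay within or below the range of vehicle for CBX6, and the log2 difference between the treatments was 0.57 ± 0.11. The call for CBX6 was lost without MAK683 library 1 or PF-06821497 library 3. SCML2, another PRC1-associated protein, differed by 1.23 ± 0.27 on the log2 scale, and its call was lost without MAK683 library 1 or PF-06821497 library 2 or 3. The median of the 25 subunits was 0.11, and 1 of the 3 calls remained without MAK683 library 1 and 1 without PF-06821497 library 3.

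NXN, which encodes the thioredoxin-like protein nucleoredoxin, had the smallest p-value of all genes. It lies on chromosome 17 (799313 to 979770, minus strand, hg38). Its level was 15.0, 12.1 and 11.0 CPM in the PF-06821497 libraries and 107, 83.3 and 85.1 CPM in the MAK683 libraries. Vehicle had 10.55, 11.7 and 11.1 CPM, so that PF-06821497 libraries 2 and 3 lay at or near the range of vehicle and all 3 MAK683 libraries far above it. The log2 fold change was 2.85 ± 0.26 (interval 2.32 to 3.39), or 7.23-fold, with an adjusted p of 9.16e-06 (edgeR). NXN passed in every alternative fit tried, with log2 fold changes from 2.73 to 3.05. Against vehicle, the log2 difference of NXN was 0.19 for PF-06821497 (adjusted p = 0.72, edgeR) and 3.04 for MAK683. These 2 contrasts and the direct one share libraries, here and below, and are given only side by side.

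The promoter windows of NXN, TBX5 and WT1 are shown because each of these genes rose together with a neighbouring or antisense transcript (described further on). Each is the 250 bases before a RefSeq transcription start on GRCh38.p14, 5′ to 3′ on the gene's strand, with CG dinucleotides, the substrate of DNA methylation, in capitals. CG reads the same on both strands, and 93.9% of 35116 windows of this length in the RefSeq table hold at least 1, with a median of 11.
NXN, chr17:979777-980026, minus strand: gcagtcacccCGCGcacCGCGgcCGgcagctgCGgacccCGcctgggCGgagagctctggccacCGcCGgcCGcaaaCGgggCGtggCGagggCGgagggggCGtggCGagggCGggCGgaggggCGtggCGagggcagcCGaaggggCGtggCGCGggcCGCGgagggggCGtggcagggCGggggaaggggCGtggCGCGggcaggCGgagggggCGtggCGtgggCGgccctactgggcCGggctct
TBX5, chr12:114408443-114408692, minus strand: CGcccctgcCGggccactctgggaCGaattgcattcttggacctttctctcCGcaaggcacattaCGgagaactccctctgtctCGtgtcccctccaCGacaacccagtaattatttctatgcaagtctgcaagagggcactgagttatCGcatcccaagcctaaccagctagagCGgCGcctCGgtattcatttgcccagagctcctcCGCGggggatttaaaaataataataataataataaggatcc
WT1, chr11:32435540-32435789, minus strand: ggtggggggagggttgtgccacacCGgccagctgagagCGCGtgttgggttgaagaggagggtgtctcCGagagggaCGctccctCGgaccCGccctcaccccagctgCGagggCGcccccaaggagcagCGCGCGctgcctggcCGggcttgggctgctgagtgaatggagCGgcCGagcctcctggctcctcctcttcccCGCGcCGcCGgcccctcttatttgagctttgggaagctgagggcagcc
The windows hold 37 CG dinucleotides for NXN, 13 for TBX5 and 19 for WT1. Other RefSeq starts of the 3 genes are not shown, and the RefSeq start of WT1 used here lies inside the gene as GENCODE 29 draws it.

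Some developmental transcription factors were higher under MAK683. Of 165 listed factors, 95 passed the filter on low counts, and of these 10 were higher and 0 lower, with a median log2 fold change of 0.66. Of all tested genes, 1.1% were called higher. A factor at the detection limit in one group could pass the filter only through a group in which it was higher, so the median carries no weight of its own. The 10 were LEF1, a Wnt effector, EN2, TBX5, WT1, LHX1, SALL4, FOXA2, TBX1, PRRX2 and BARX2. SALL4, a zinc finger factor of embryonic stem cells, was 5.71, 2.19 and 3.42 CPM in the PF-06821497 libraries, 10.3, 8.31 and 11.5 CPM in the MAK683 libraries and 0.45, 0.46 and 0.75 CPM in vehicle. The 3 groups did not overlap, and the log2 fold change between the treatments was 1.42 ± 0.32. PRRX2, a mesenchymal homeobox gene, was 8.98, 5.97 and 10.54 CPM under PF-06821497 and 19.8, 16.6 and 15.6 CPM under MAK683, a log2 difference of 1.03 ± 0.18, and was not called without MAK683 library 1. BARX2, a homeobox gene of epithelia, was the most abundant of the 10. It had 46.0, 40.9 and 52.95 CPM under PF-06821497, 73.1, 73.3 and 79.0 CPM under MAK683 and 32.4, 28.8 and 26.6 CPM in vehicle. SALL4 and BARX2 lie outside the rule by which genes were named and were chosen after their values were seen. Without MAK683 library 1, or without PF-06821497 library 2 or 3, the list had 4, 5 and 5 higher calls, and without MAK683 library 3 it had 6.

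Against vehicle, the same list had 32 higher and 5 lower members under MAK683, and 10 higher and 4 lower under PF-06821497. Over all genes the shares called were 10.4% higher and 5.17% lower for MAK683, and 5.96% higher and 3.59% lower for PF-06821497. The filter on low counts bears on the counts of the list as it does on the median.

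Several of the largest fold changes among the named genes belonged to tissue-restricted regulators with a handful of counts under PF-06821497. HOXD11, a limb and urogenital homeobox gene, had 77 counts over the 3 MAK683 libraries, 6 over the 3 PF-06821497 libraries and 1 over the 3 vehicle libraries. Its levels were 0.26, 0 and 0.04 CPM under PF-06821497 and 1.61, 1.32 and 1.33 CPM under MAK683, a log2 fold change of 3.84 ± 0.71. Its call was lost without PF-06821497 library 2 or 3. TAL1, a blood cell factor, differed by 3.21 ± 0.55 on the log2 scale, with 0.62, 0.13 and 0.18 CPM under PF-06821497 and 4.08, 2.01 and 2.33 CPM under MAK683. EOMES, a T-box factor of early embryos and lymphocytes, was 0.21, 0.21 and 0.09 CPM under PF-06821497 and 2.04, 1.22 and 1.33 CPM under MAK683. EYA2, a transcriptional coactivator of organ development, was 2.65, 1.03 and 1.32 CPM under PF-06821497 and 15.8, 10.3 and 10.6 CPM under MAK683. Vehicle had 0.86, 1.13 and 1.21 CPM of EYA2, which overlapped the PF-06821497 libraries, and the log2 difference between treatments was 2.89 ± 0.36 (adjusted p = 0.00057, edgeR). CECR2, a bromodomain protein of chromatin remodelling complexes, was 4.67, 2.19 and 2.24 CPM under PF-06821497 and 22.9, 10.8 and 19.5 CPM under MAK683. LEF1, EN2, WT1, CD7, TBX5 and ONECUT3 completed the 12 largest increases among called genes with at least 1 CPM under MAK683 and no overlap between the treatments, with log2 fold changes from 2.66 to 3.17. Some called genes below 1 CPM, such as TBX5-AS1, LHX1 and ATOH8, had larger fitted values, which rest on very few reads under PF-06821497 and are not given. Without PF-06821497 library 2, EN2, WT1 and ONECUT3 were not called, and without PF-06821497 library 3, TAL1, WT1 and CECR2 were not. WT1 was also not called without MAK683 library 1. In PF-06821497 library 1 the level of HOXD11, TAL1, LEF1, EYA2, NXN, WT1, TBX5 and CECR2 was the highest of the 3 PF-06821497 libraries. For the rest of the 12, EOMES and CD7 were highest in PF-06821497 library 2, and EN2 and ONECUT3 in library 3.

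**Figure D2:**
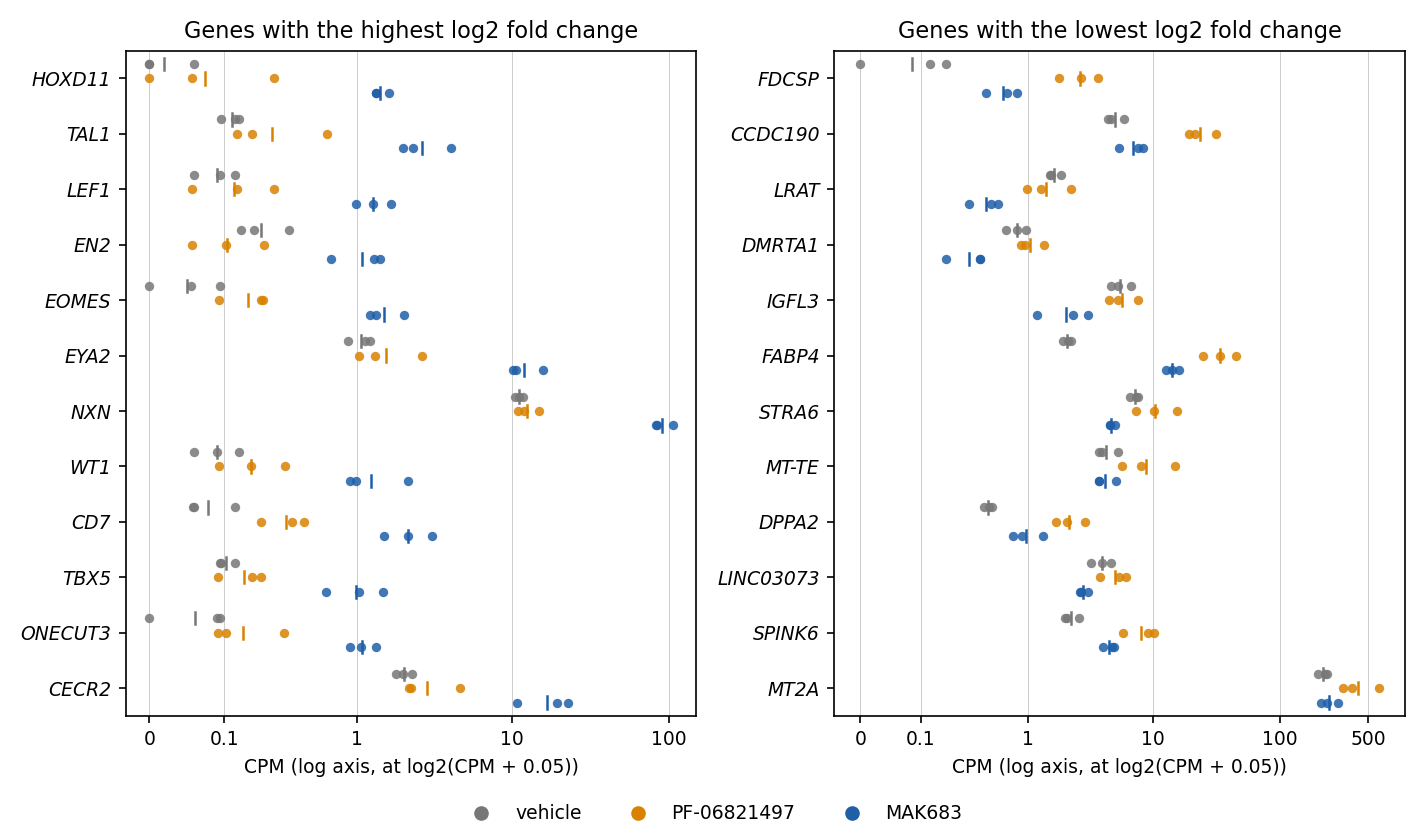
CPM in each library (log axis, points) for the 12 named genes with the largest increase and the 12 with the largest decrease under MAK683. Short bars are means of log2(CPM + 0.05), and vehicle, PF-06821497 and MAK683 are grey, orange and blue. NXN has 83.3 to 107 CPM under MAK683 against 11.0 to 15.0 CPM under PF-06821497.

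HOX genes, which pattern the body axis, had 26 tested members of 39 listed and 2 calls, HOXD11 and HOXB7, both higher. Of all tested genes, 1.1% were called higher. HOXB7 was 0.88, 0.30 and 0.44 CPM under PF-06821497, 4.20, 2.10 and 2.28 CPM under MAK683 and 0.50, 0.17 and 0.14 CPM in vehicle. Its log2 fold change was 2.41 ± 0.50, and its call was lost without MAK683 library 1 or PF-06821497 library 2 or 3. Their median and the number of genes without overlap carry no weight of their own, for the reason given for the transcription factors. For 9 of the 26, all 3 MAK683 libraries lay above all 3 PF-06821497 libraries, beside 8.46% of all tested genes. The count of HOX calls was 1 without MAK683 library 1 and 0 without PF-06821497 library 2 or library 3. Against vehicle, 7 HOX genes were higher under MAK683 and 0 under PF-06821497, beside 10.4% and 5.96% of all tested genes. These counts carry no weight of their own either, for the same reason.

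Developmental signalling genes had 3 calls of 56 tested, all higher under MAK683, against 1.1% of all tested genes called higher. BMP7, a bone morphogenetic protein, was 6.28, 7.52 and 5.93 CPM under PF-06821497, 16.8, 17.4 and 18.1 CPM under MAK683 and 3.26, 7.09 and 6.85 CPM in vehicle. PF-06821497 overlapped vehicle, and the log2 difference between the treatments was 1.40 ± 0.24 (adjusted p = 0.0054, edgeR). CHRD and FST, extracellular inhibitors of bone morphogenetic proteins and activins, differed by 1.91 ± 0.39 and 0.71 ± 0.16 on the log2 scale. For FST both treatments exceeded vehicle, with 82.3, 76.9 and 57.9 CPM under PF-06821497, 145, 98.8 and 112 CPM under MAK683 and 33.7, 35.1 and 33.4 CPM in vehicle. CHRD and FST lost their calls without MAK683 library 1 or PF-06821497 library 2 or 3, CHRD also without MAK683 library 2 and FST without MAK683 library 3. The list had 5 calls without PF-06821497 library 1.

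MHC class II genes, which encode the molecules that present peptides to helper T cells, formed the list with the most calls. Of 15 genes, 12 were higher and 0 lower under MAK683, against 1.1% of all tested genes called higher. The median log2 fold change was 1.93. CIITA, the master activator of the class II genes, was 14.5, 9.93 and 7.42 CPM in the PF-06821497 libraries, 37.5, 20.7 and 28.2 CPM in the MAK683 libraries and 4.80, 5.87 and 4.89 CPM in vehicle. The 3 groups did not overlap, and the log2 fold change between the treatments was 1.44 ± 0.28 (adjusted p = 0.012, edgeR). CD74, the invariant chain that guides class II molecules through the cell, was the most abundant, with 107, 65.3 and 78.6 CPM under PF-06821497 and 380, 259 and 315 CPM under MAK683. HLA-DRA, an antigen-presenting chain, was 25.2, 16.9 and 19.3 CPM under PF-06821497 and 94.6, 57.8 and 66.6 CPM under MAK683, against 3.26, 4.36 and 2.38 CPM in vehicle. For HLA-DPB1, the beta chain of HLA-DP, the libraries had 4.88, 3.31 and 4.30 CPM against 19.7, 13.8 and 14.8 CPM, a log2 difference of 1.95 ± 0.32 (adjusted p = 0.0053, edgeR). The peptide loading genes HLA-DMA and HLA-DMB differed by 1.46 ± 0.31 and 1.93 ± 0.39. HLA-DPA1 and HLA-DQB1 differed by 1.91 ± 0.35 and 1.99 ± 0.37. CD74, HLA-DRA, HLA-DMA and HLA-DMB lie outside the rule by which genes were named and were chosen after their values were seen.

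For 13 of the 15 genes, all MAK683 libraries lay above all PF-06821497 libraries, beside 8.46% of all tested genes. HLA-DOB, HLA-DQA2 and HLA-DQB2 did not pass the test. Against vehicle, 14 of the 15 were higher under MAK683 and 12 under PF-06821497, with medians of 4.10 and 2.19 on the log2 scale. The shares of all tested genes higher against vehicle were 10.4% for MAK683 and 5.96% for PF-06821497. The count of 12 between the treatments fell to 1 without MAK683 library 1, and likewise to 1 without PF-06821497 library 2 or library 3, and the gene kept was HLA-DPB1. Some genes within the HLA-DR family, and some within the HLA-DQ family, are close copies whose reads could be split between them by the counting. Single values of HLA-DRB1, HLA-DRB5, HLA-DQA1 and HLA-DQA2 are therefore uncertain.

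Markers of cells that carry class II molecules by nature were given beside these genes. The host cells are mouse, and mouse reads counted as human genes could not be told apart from reads of the tumour cells. Summed over the 15 macrophage and granulocyte markers, the level was 4603 to 7312 CPM under PF-06821497 and 3593 to 4879 CPM under MAK683, and 0 of 14 tested markers were called (edgeR, 1 with an unadjusted p under 0.05). This sum can hold reads of the tumour cells themselves, so it does not measure leukocyte content. The 11 lymphocyte markers summed to 4.21 to 4.96 CPM under PF-06821497 and 4.70 to 5.43 CPM under MAK683, with 2 at 0 in all MAK683 libraries and 0 of 5 tested markers called (0 with an unadjusted p under 0.05). The 10 markers of the labelled urothelial carcinoma were all detected, summing to 7823 to 8735 CPM under PF-06821497 and 6859 to 9460 CPM under MAK683, and 0 were called (1 with an unadjusted p under 0.05). The part of other cells in the class II difference was not tested.

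**Figure D3:**
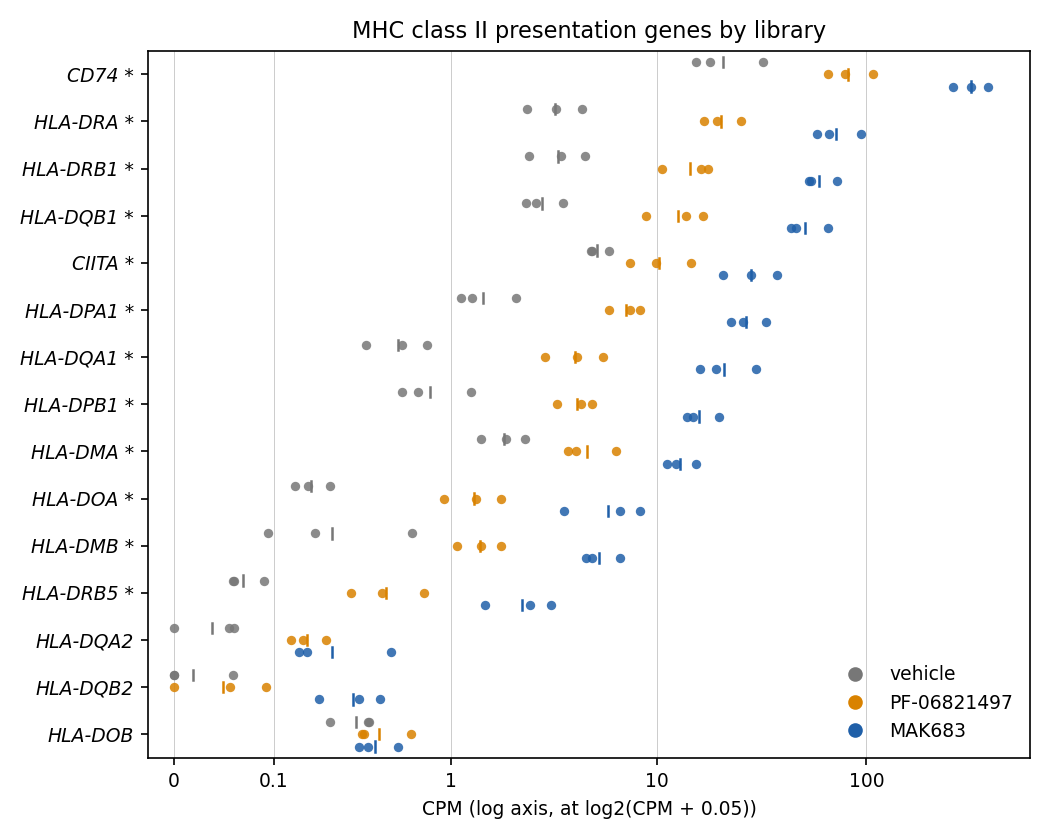
CPM in each library (log axis, points) for the 15 MHC class II presentation genes, with means of log2(CPM + 0.05) as short bars. Asterisks mark the 12 genes called between the treatments, and CD74 has 259 to 380 CPM under MAK683 against 65.3 to 107 CPM under PF-06821497.

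Over all tested genes, 12.4% had an unadjusted p under 0.05, the background for the counts at that level. MHC class I genes, which present peptides to cytotoxic T cells and are expressed by most cells, gave 0 calls of 22 (edgeR, 7 with an unadjusted p under 0.05). HLA-B was 1667, 1725 and 1792 CPM in the PF-06821497 libraries and 2743, 2666 and 2183 CPM in the MAK683 libraries. The groups did not overlap, but the log2 difference of 0.55 (interval 0.14 to 0.96) had an adjusted p of 0.22 (edgeR). TAP1, the peptide transporter, differed by 0.47 with an adjusted p of 0.14 (edgeR). Interferon genes gave 0 calls of 67 (24 with an unadjusted p under 0.05), with a median of 0.30. Among 50 chemokines and cytokines, CSF1, the macrophage growth factor, was called. CSF1 was 16.8, 10.2 and 13.3 CPM under PF-06821497, 36.3, 23.6 and 28.4 CPM under MAK683 and 6.56, 7.05 and 7.55 CPM in vehicle. The log2 difference was 1.13 ± 0.22, and its call was lost without MAK683 library 1 or PF-06821497 library 2 or 3. CXCL8, the neutrophil chemokine, had values of 18.9, 15.3 and 17.8 CPM against 40.6, 23.4 and 34.8 CPM and an adjusted p of 0.14 (edgeR).

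CDKN1C, which encodes the cell cycle inhibitor p57, was the only called gene of 28 CDK inhibitors and p53 targets. It was 8.83, 6.19 and 9.04 CPM in the PF-06821497 libraries, 26.0, 27.9 and 19.3 CPM in the MAK683 libraries and 6.56, 7.22 and 6.15 CPM in vehicle. The log2 fold change was 1.60 ± 0.19 (adjusted p = 0.00034, edgeR), and CDKN1C passed in every alternative fit, with values from 1.44 to 1.75. Proliferation genes gave 0 calls of 55 (edgeR). An unadjusted p under 0.05 was reached by 14 of the 55, against 12.4% of all tested genes, and their median was -0.15. For 14 of the 55, all MAK683 libraries lay below all PF-06821497 libraries, against 5.82% of all tested genes. UBE2C, a mitotic ubiquitin-conjugating enzyme, was 137, 173 and 194 CPM under PF-06821497 and 118, 135 and 122 CPM under MAK683, with an adjusted p of 0.092 (edgeR). MKI67 overlapped between the groups, with an interval of -0.30 to 0.29.

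Genes of the other lists gave scattered calls, beside 1.1% of all tested genes called higher and 0.0729% called lower. Among 42 luminal urothelial genes, TFF1, MUC4 and TMPRSS2 were higher and FABP4 lower under MAK683. MUC4, a membrane mucin, was 3.01, 1.203 and 2.15 CPM under PF-06821497, 15.1, 5.97 and 7.55 CPM under MAK683 and 0.45, 0.59 and 0.37 CPM in vehicle. The 3 higher luminal calls were all lost without MAK683 library 1 or PF-06821497 library 2 or 3. SULT1A1, a phenol sulfotransferase, was 37.6, 34.6 and 29.9 CPM under PF-06821497 and 63.4, 61.8 and 66.1 CPM under MAK683, and AXL, a receptor tyrosine kinase, differed by 0.67 ± 0.13 on the log2 scale. SULT1A1 was not called without PF-06821497 library 3, and AXL was not called without that library or MAK683 library 1. AHRR, a repressor of the aryl hydrocarbon receptor, differed by 1.49 ± 0.37, and of the 6 fits that left out a library only the one without MAK683 library 3 called it. AHRR was called in 6 of 19 alternative fits in all, and it lost its call under both other scalings, limma-voom, the fit of the 6 compared libraries and both resubmission terms. CACNA1H, a T-type calcium channel, was the only called gene among the 43 tested members of the neuronal list, at 1.37 ± 0.24. That list is not complete. SHANK3 and GABBR1, synaptic genes outside it, were called higher at 1.61 ± 0.28 and 1.40 ± 0.20, and were chosen after their values were seen. The cancer-testis, basal and squamous, hypoxia, stress and immediate early lists gave 0 calls of 49, 64, 34, 25 and 28 tested members, with 10, 8, 2, 5 and 4 at an unadjusted p under 0.05 (edgeR). Outside the first list, the cancer-testis gene CT47B1 was called higher at 1.77 ± 0.38 and the germline gene DPPA2 lower at -1.14 ± 0.28. Of the fits that left out a library, only the one without MAK683 library 2 called DPPA2. CT47B1 was chosen after its values were seen. The basal keratins KRT14 and KRT17 had intervals of -0.64 to 0.20 and -0.59 to 0.24, so a 2-fold difference in either was excluded at the 95% level.

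**Figure D4:**
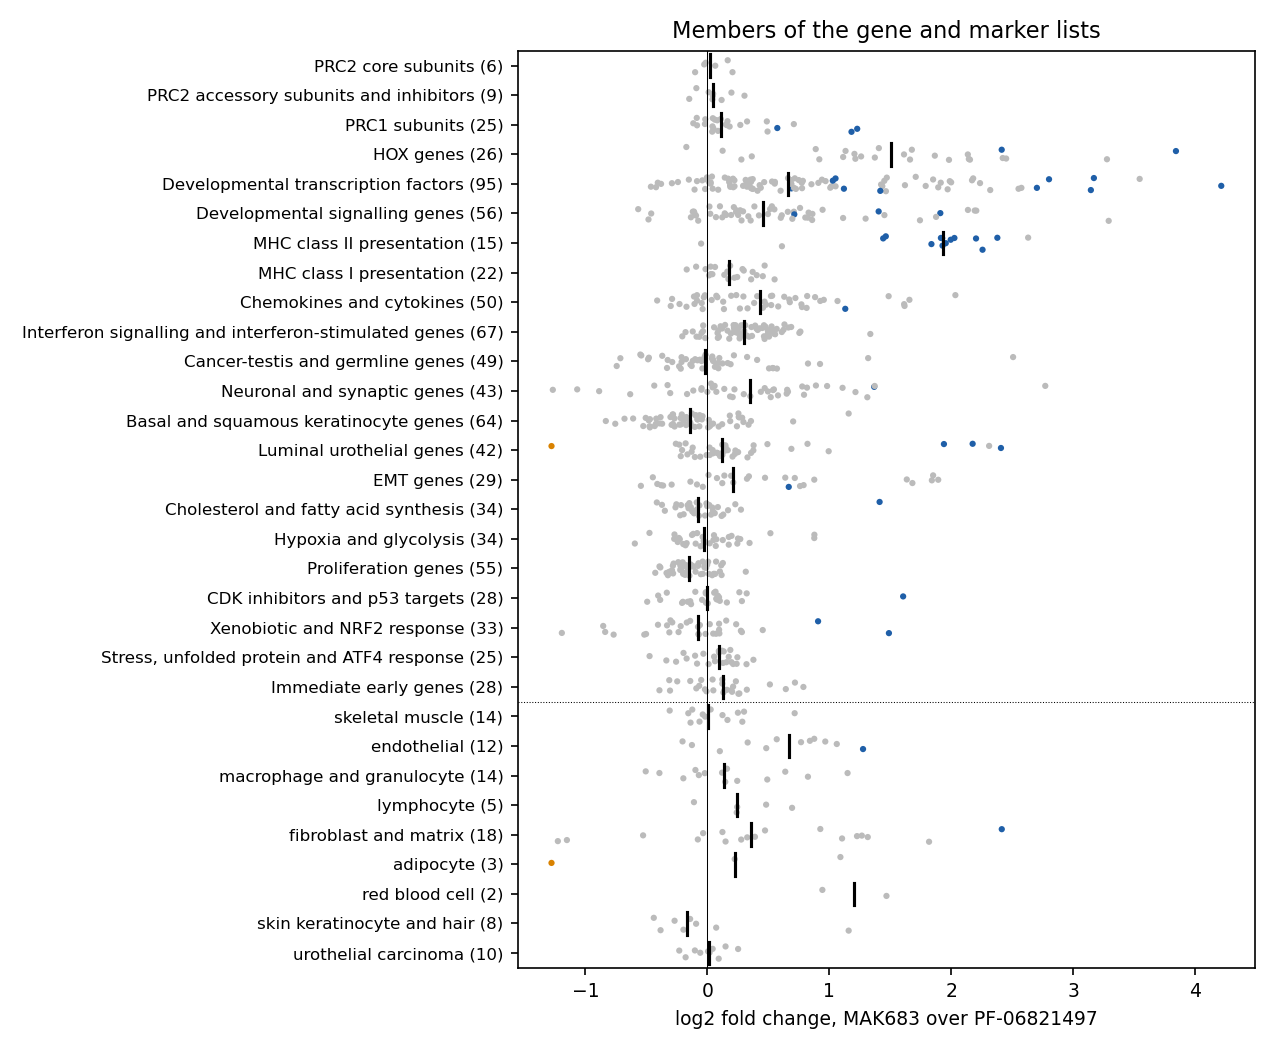
Log2 fold change of MAK683 over PF-06821497 for every tested member of the gene lists (above the dotted line) and cell marker lists (below it), with the number tested in brackets. Blue and orange points passed the test upward and downward, and black bars are medians, 1.93 for MHC class II and 0.03 for the PRC2 core.

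Genes lower under MAK683 included some that stood above vehicle under PF-06821497 (FABP4, CCDC190, MT2A) and some that stood below vehicle under MAK683 (LRAT). FABP4, a lipid carrier of fat cells and urothelium, was 34.0, 25.1 and 45.7 CPM in the PF-06821497 libraries, 12.8, 16.1 and 14.2 CPM in the MAK683 libraries and 2.22, 2.10 and 1.91 CPM in vehicle. Both treatments lay above vehicle, and the log2 fold change of MAK683 over PF-06821497 was -1.28 ± 0.28 (adjusted p = 0.024, edgeR). The 7 fat cell markers, FABP4 included, summed to 32.6 to 53.4 CPM under PF-06821497 and 28.8 to 31.1 CPM under MAK683, with 1 marker at 0 in each group. LPL, another of these markers, had 7.32, 4.73 and 5.22 CPM against 13.2, 9.68 and 13.8 CPM and did not pass the test.

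CCDC190, a coiled-coil protein gene, was 19.4, 31.4 and 21.5 CPM under PF-06821497, 5.38, 8.41 and 7.60 CPM under MAK683 and 4.39, 5.96 and 4.70 CPM in vehicle. The PF-06821497 libraries stood above the other 6, and the log2 fold change between the treatments was -1.75 ± 0.36. Against vehicle, CCDC190 differed by 2.26 under PF-06821497 and 0.51 under MAK683, the latter with an adjusted p of 0.42 (edgeR). MT2A, a metal-binding protein, was 319, 372 and 606 CPM under PF-06821497, 212, 289 and 238 CPM under MAK683 and 237, 228 and 200 CPM in vehicle. Its log2 fold change was -0.81 ± 0.20, and the call was lost under other scalings (DESeq2-style and upper-quartile size factors). LRAT, which esterifies retinol, was 0.99, 2.23 and 1.27 CPM under PF-06821497, 0.31, 0.49 and 0.55 CPM under MAK683 and 1.86, 1.51 and 1.54 CPM in vehicle. Its log2 difference from vehicle was -1.83 under MAK683 and -0.11 under PF-06821497. STRA6, the retinol uptake receptor, was 7.37, 10.2 and 15.4 CPM under PF-06821497 and 4.58, 4.55 and 4.99 CPM under MAK683. CCDC190 was not called without MAK683 library 1 or 3 or PF-06821497 library 2 or 3. For FABP4 this held without any 1 of the MAK683 libraries or without PF-06821497 library 3. MT2A was not called without MAK683 library 1 or 3 or PF-06821497 library 2 or 3. LRAT was not called without MAK683 library 1 or PF-06821497 library 2, and STRA6 was called only without PF-06821497 library 1 among these fits.

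Markers of other cell types moved in part with the treatments. Of 12 endothelial markers, PECAM1 was called, with 11.5, 8.94 and 7.33 CPM under PF-06821497, 20.8, 20.4 and 25.9 CPM under MAK683 and 2.49, 1.68 and 1.82 CPM in vehicle. The summed endothelial markers were 57.6 to 92.9 CPM under PF-06821497 and 104 to 126 CPM under MAK683. For 4 of the 12 tested endothelial markers all MAK683 libraries lay above all PF-06821497 libraries, and for 0 all lay below. The median log2 fold change of the 12 was 0.67. CDH5, a single low marker that defines endothelial cells, was 0.62, 0.69 and 0.70 CPM against 0.43, 0.98 and 0.72 CPM. COL6A1, a matrix collagen chain, was 7.48, 2.41 and 4.61 CPM under PF-06821497 and 30.7, 24.7 and 21.2 CPM under MAK683, the only call among 18 fibroblast and matrix markers. The other fibroblast and matrix markers went both ways: for 4 of the 18, COL6A1 included, all MAK683 libraries lay above all PF-06821497 libraries, and for 3 all lay below. Of all tested genes, 8.46% lay above and 5.82% below in this way. The 18 summed to 1575 to 2149.5 CPM under PF-06821497 and 1804 to 3039 CPM under MAK683. An unadjusted p under 0.05 was reached by 8 of the 18 and by 4 of the 12 endothelial markers. Of the red blood cell, skin keratinocyte and skeletal muscle markers, 0 of 2, 0 of 8 and 0 of 14 tested were called (edgeR, 1, 2 and 0 with an unadjusted p under 0.05). The part of other cells in these differences was not tested. PECAM1, CDH5 and COL6A1 were chosen after their values were seen. More cells of a type and more RNA per cell cannot be told apart in these bulk samples.

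Called genes lay near one another more often than tested genes in general. Of the 242 higher genes, 61 (25.2%) had another called gene within 100 kb, against 4.65% of all tested genes and 0 of the 16 lower genes. No test was made of this difference. The class II genes on chromosome 6 made up the longest run. Next to NXN on chromosome 17, ABR, a GTPase regulator (1003518 to 1229021), rose by 1.79 ± 0.27 on the log2 scale, from a mean of 4.78 to 16.5 CPM. ENSG00000262003, inside NXN on the opposite strand (909632 to 911212), rose by 2.41 ± 0.40. WT1 and WT1-AS on chromosome 11, and TBX5 and TBX5-AS1 on chromosome 12, were further pairs, each with opposite strands and overlapping ends. WT1-AS starts at 32435518 and the 5′ end of WT1 lies at 32435630, and TBX5-AS1 starts at 114408191 and the 5′ end of TBX5 lies at 114408442 (GENCODE 29). Whether the counting used strand is not given in the sources used here, so reads of overlapping and antisense pairs cannot be told apart. BVES and POPDC3 (chromosome 6), both Popeye domain genes, rose by 2.32 ± 0.49 and 2.18 ± 0.40. The neighbouring genes were chosen after their values were seen.

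Across all 7 groups, the medians of NXN, EYA2 and CECR2 were highest under CPI-0209, then MAK683, then Valemetostat, whereas CCDC190 and FABP4 had other orders. All compounds were given at 75 mg/kg. NXN was 6.72 to 12.04 CPM under CPI-1205, 8.49 to 12.4 CPM under tazemetostat, 39.3 to 84.4 CPM under Valemetostat and 105 to 181 CPM under CPI-0209, all of them catalytic-site inhibitors. The MAK683 range of 83.3 to 107 CPM overlapped those of Valemetostat and CPI-0209, and the PF-06821497 range of 11.0 to 15.0 CPM overlapped those of CPI-1205, tazemetostat and vehicle. EYA2 was 0.98 to 1.32 CPM under CPI-1205, 0.97 to 1.47 CPM under tazemetostat, 5.18 to 12.6 CPM under Valemetostat and 14.2 to 33.2 CPM under CPI-0209. CCDC190 was highest under PF-06821497, where its lowest library (19.4 CPM) exceeded the highest of the other 6 groups (17.5 CPM, Valemetostat). FABP4 was 22.7 to 36.3 CPM under Valemetostat, 18.9 to 23.0 CPM under CPI-0209, 5.48 to 6.08 CPM under tazemetostat and 2.23 to 8.29 CPM under CPI-1205. The 5 genes were chosen after their values were seen, and no test was made of the order.

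**Figure D5:**
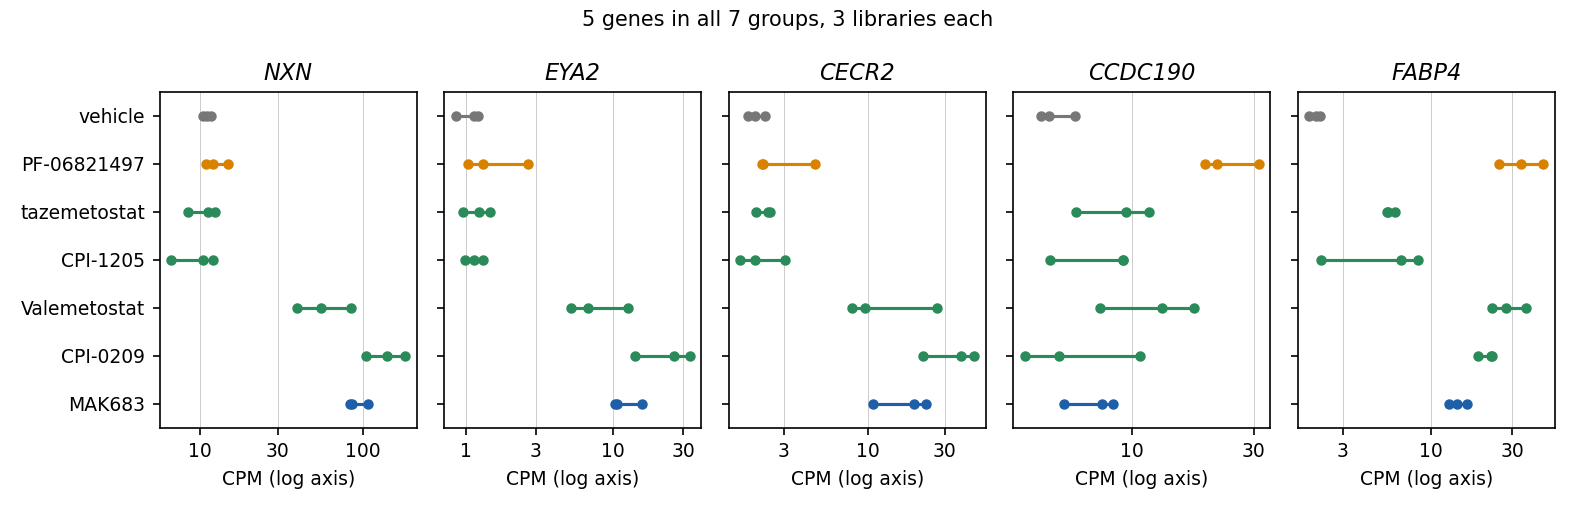
CPM (log axis) of 5 genes in all 7 groups, with a point for each of the 3 libraries and a line over their range. NXN is at 83.3 to 107 CPM under MAK683 and 11.0 to 15.0 CPM under PF-06821497, and CCDC190 is highest under PF-06821497.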

How the data were processed

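RNA from HT1376 xenografts was sequenced as paired reads of 150 bases, per the labels' protocols. STAR 2.7.3a, RSEM 1.3.1 and hg38 appear in the submitters' processing notes. The authors deposited raw read counts per gene for each library. Which program counted the reads, with which strand setting and annotation release, and whether mouse reads were removed is not given in the sources used here. Of 57500 gene identifiers, 56410 matched a symbol, with positions from GENCODE 29.

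Counts of 21 libraries (9725690 to 25771778 each) in 7 groups of 3 were fitted together with edgeR 4.0.16 in R 4.3.3 (TMM scaling, filterByExpr, robust quasi-likelihood test, group as the only term). The contrast was MAK683 minus PF-06821497, two-sided, over 21958 genes. A low count is imprecise: 3 counts is the upper limit that a count of 0 allows, and this covers counting error only. CPM uses TMM-scaled totals. Alternatives used DESeq2 1.42.0 and limma 3.58.1, and the procedure was tested on simulated data.

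Genes were named by rule: EZH2, EZH1, EED and SUZ12. Then came the 12 largest called fold changes each way with at least 1 CPM in the higher group and no overlap. From each list followed the members with the smallest p, at most 4, and the 2 most abundant members of lists without calls. Any other gene given lies outside this rule and was chosen after its values were seen. The comparison and the 22 gene lists and 9 marker lists were chosen with earlier results of these data known. Replicate numbers follow the titles, which for PF-06821497 differ from those in the deposited counts' names. The result of 1 called gene is not reported here.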

Additional observations from a re-analysis of the deposited data

How the results depend on the processing

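All 46 named genes called between the treatments kept their direction in every alternative in which they were tested. Against 242 higher and 16 lower calls, DESeq2 gave 387 and 96, no filter on low counts 762 and 170, limma-voom 240 and 8, a test against a 1.5-fold change 24 and 0 (731 and 119 at an unadjusted p under 0.05), and a fit of the 6 libraries alone 157 and 5. A term for the resubmission mark in the titles gave 305 and 103, one for the mark in the file names 181 and 31, and the mean of skeletal muscle markers as a covariate 365 and 64. Leaving out 1 library gave 62 to 427 higher and 1 to 203 lower calls, and 17 to 43 of the 46 named genes kept their call. The cause of these shifts was not tested. Higher calls were 93.8% of all calls, 94.4% and 95.3% under the other scalings, 81.8% with no filter, 80.1% with DESeq2, 74.8% with the title's resubmission term and 67.8% without PF-06821497 library 1.

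Whether the replicate numbers pair the libraries is not known. Deviations of same-numbered libraries correlated at 0.28, 0.27 and -0.05 by the titles and at -0.20, 0.08 and 0.16 by the file names. Library 2 by the titles had the lowest mean of skeletal muscle genes in vehicle (log2 CPM 0.22), PF-06821497 (1.10) and MAK683 (0.85). With the replicate number as a block, calls were 196 and 10 by the titles and 218 and 12 by the file names.

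Depth limits the genes near 0 CPM under PF-06821497, such as HOXD11 with 6 counts over 3 libraries, whose fold changes have wide intervals (2.36 to 5.33 on the log2 scale).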

Other observations

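The following 5 genes outside the lists were called higher under MAK683 in all of the fits that left out 1 library. KREMEN2, a receptor for the Wnt inhibitor Dickkopf, had a mean of 14.5 CPM under PF-06821497, 32.8 CPM under MAK683 and 5.92 CPM in vehicle, a log2 fold change between treatments of 1.18 ± 0.17. DLL1, a Notch ligand, had 1.28, 3.18 and 2.53 CPM in the same order and a log2 fold change of 1.32 ± 0.22, so that its PF-06821497 mean lay below vehicle. MACROH2A2, a histone variant of silent chromatin, had 0.73, 3.44 and 0.29 CPM and a log2 fold change of 2.24 ± 0.35. MEG3, an imprinted long noncoding RNA, had 1.02, 4.90 and 0.09 CPM and a log2 fold change of 2.26 ± 0.35. MSI1, an RNA-binding protein of neural stem cells, had 1.196, 4.17 and 0.39 CPM and a log2 fold change of 1.81 ± 0.32. These genes were chosen after their values were seen.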
